A study of Homo sapiens with 8 samples.

Results

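The 36 genes described here are imprinted genes, named in a list from textbook knowledge and assigned to 17 chromosomal domains. They were found by Ensembl identifier among the 69215 genes counted in each library. Of the 36, 26 passed the filter on low counts that kept 15931 genes for testing, and the other 10 are given by their counts. Of the 26, 5 reached the filter's minimum of 0.292 CPM in the required 2 libraries in 1 of the 2 cell lines alone, MEG3, MEG8 and DLK1 in the GFP line and CDKN1C and HYMAI in the SMARCB1 line.

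An imprinted gene is expressed from the copy inherited from 1 parent, because a DNA methylation mark set in the egg or sperm is kept on 1 parental copy through later cell divisions. Imprinted genes lie in clusters in which a differentially methylated control region, often the promoter of a noncoding RNA, governs several neighbours. Many of them regulate fetal and placental growth, and loss or gain of their imprint occurs in embryonal tumors of the kidney. The counts used here do not tell the parental copies apart, so the values below are total RNA of both copies and say nothing of the imprint itself.

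RNA was sequenced from G401, an established kidney rhabdoid tumor line without SMARCB1, which is a subunit of SWI/SNF complexes that move nucleosomes. Each of 2 derivatives carried a Tet-On transgene that doxycycline (Dox) switches on, SMARCB1 in the SMARCB1 line and GFP in the control GFP line. Both lines were treated for 12 h with 0.1 µg/ml Dox or with its solvent, dimethylsulfoxide (DMSO), which gave the groups SMARCB1 DMSO, SMARCB1 Dox, GFP DMSO and GFP Dox, with 2 libraries each. The study's methods state that several plates were pooled per condition and that the work was done in duplicate, without saying at which step the duplicates were separated. The p-values therefore measure the spread between these libraries, which may be in part technical. Each line is a single engineered derivative, so the transgene, the history of the line and any clonal selection cannot be told apart in a comparison between the lines.

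The libraries held 29632090 to 37597477 counts in genes, of which 18.9% to 27.9% came from mitochondrially encoded genes. SMARCB1 DMSO replicate 1 had the highest mitochondrial share and the lowest scaling factor (0.907, against 0.978 to 1.04 in the other libraries). SMARCB1 itself had 0 counts in each GFP library, and in the SMARCB1 line 10 and 21 with DMSO and 30474 and 29383 with Dox. Among markers of other cell types, EPCAM (epithelium) reached at most 7 counts, PTPRC (blood) 2 and PECAM1 (endothelium) 3 in any library, while VIM, a mesenchymal intermediate filament, had 22088 to 45130. CDH1, a second epithelial marker, had 7 to 31 counts.

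The promoters of several of these genes are shown because their RNA levels carry the comparisons below. Windows of 250 bases before an annotated start were taken from RefSeq (GRCh38.p14) for the 25 members listed there. Each is printed from 5′ to 3′ on the strand of the gene, and capitals mark the hexamer TGCCGC in either orientation (TGCCGC or GCGGCA), the letters that the imprint-protecting zinc finger protein ZFP57 reads when methylated. The MEG3 window (chr14:100825858-100826107, plus strand) holds 1 hexamer, and those of NAP1L5 (chr4:88697830-88698079, minus strand), of PLAGL1 and HYMAI (chr6:144008260-144008509, minus strand) and of SNRPN and SNURF (chr15:24954737-24954986, plus strand) hold 2 each. PLAGL1 and SNRPN have further annotated starts, whose windows hold 0 hexamers for PLAGL1 and 0 or 1 for SNRPN. For MEST, which also has several annotated starts, the window printed (chr7:130491808-130492057, plus strand) holds 0, and a window further upstream (chr7:130486097-130486346) holds 1.
MEG3: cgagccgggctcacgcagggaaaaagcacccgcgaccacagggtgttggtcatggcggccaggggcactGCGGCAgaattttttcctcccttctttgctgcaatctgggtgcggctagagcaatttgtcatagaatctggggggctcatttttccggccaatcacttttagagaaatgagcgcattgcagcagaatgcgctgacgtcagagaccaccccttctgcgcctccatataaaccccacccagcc
NAP1L5: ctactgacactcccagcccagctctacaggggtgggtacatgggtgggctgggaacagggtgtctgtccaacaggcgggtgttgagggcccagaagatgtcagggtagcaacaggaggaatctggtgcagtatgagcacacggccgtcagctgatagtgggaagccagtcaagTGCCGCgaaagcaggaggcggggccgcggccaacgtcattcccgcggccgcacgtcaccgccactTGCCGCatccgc
PLAGL1 and HYMAI: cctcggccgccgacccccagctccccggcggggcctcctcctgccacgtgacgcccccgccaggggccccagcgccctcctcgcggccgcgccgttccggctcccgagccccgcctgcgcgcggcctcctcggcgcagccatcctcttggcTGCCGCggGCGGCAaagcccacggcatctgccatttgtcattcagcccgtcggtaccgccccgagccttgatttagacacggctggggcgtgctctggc
SNRPN and SNURF: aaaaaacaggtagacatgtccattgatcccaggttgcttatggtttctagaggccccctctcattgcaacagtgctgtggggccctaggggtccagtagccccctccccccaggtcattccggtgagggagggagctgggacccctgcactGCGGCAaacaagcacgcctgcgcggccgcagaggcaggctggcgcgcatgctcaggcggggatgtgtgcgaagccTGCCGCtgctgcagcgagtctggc
MEST: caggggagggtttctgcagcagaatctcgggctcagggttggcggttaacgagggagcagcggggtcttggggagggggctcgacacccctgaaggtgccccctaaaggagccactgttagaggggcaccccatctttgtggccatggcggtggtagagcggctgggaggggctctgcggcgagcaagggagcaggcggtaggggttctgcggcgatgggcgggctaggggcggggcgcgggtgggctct
In 13 of the 25 members at least 1 window held the hexamer, and it occurred in 15 of the members' 52 distinct windows (28.8%), against 12.7% of all 35116 windows in the table. The MEG3 windows overlap and hold the same hexamer. Repeated windows were removed for the members but not for the whole table, so the shares are not strictly alike. PLAGL1 and HYMAI share a window, as do SNRPN and SNURF, and no share per gene was computed over all genes. A match is a run of letters and no measure of binding or methylation. ZFP57 and DPPA3, a second factor that guards imprints, had 0 counts in all 8 libraries. Other factors of the list described further below were present, such as ZNF445 with 1121 to 1661 counts and TRIM28 with 7850 to 13922.

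Levels are given as CPM, that is counts normalized to library size after TMM correction. Divided by the length of all annotated exons, PEG10 stood highest, with 53.9 ± 3.83 CPM per kb in SMARCB1 DMSO and 42.9 ± 1.63 in GFP DMSO (SD, n = 2). GNAS was next, with 37.1 ± 0.169 and 29.6 ± 1.15 CPM per kb. SNRPN, UBE3A, BLCAP, IGF2R and NAP1L5 followed, between 5.79 and 11.4 CPM per kb in these groups, and their order differed between the lines. The ranking depends on the length used, which covers the exons of all transcripts, 6689 bases for PEG10 and 22221 for GNAS. Undivided, GNAS stood above PEG10, at 825 against 361 CPM in SMARCB1 DMSO and 657 against 287 in GFP DMSO. NDN, MAGEL2, NNAT and AIRN had 0 counts in every library. RTL1 and GRB10 had 1 count in 1 GFP library each, DIO3 had 2 counts in 1 SMARCB1 Dox library, MEG9 at most 3 and MKRN3 at most 7 counts in any library.

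**Figure D1:**
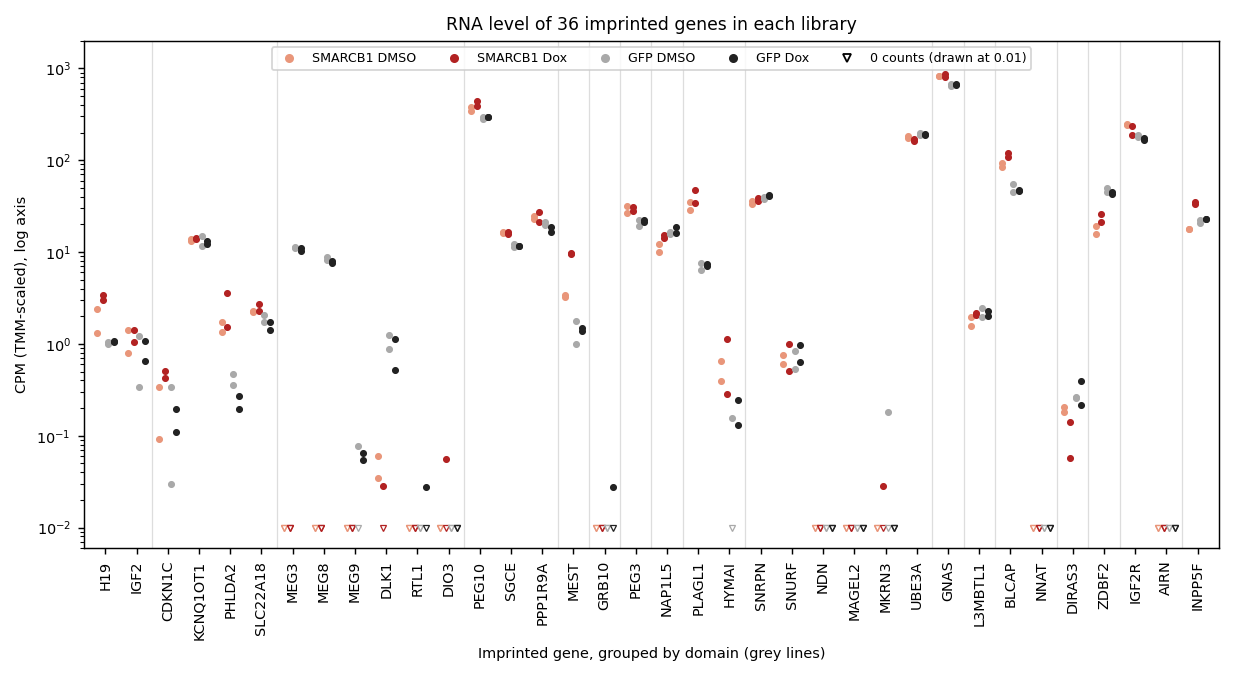
CPM (log axis) of the 36 imprinted genes in each of the 8 libraries, with 1 point per library colored by group, grey lines between domains and open triangles for libraries with 0 counts. MEG3 and MEG8 lie near 10 CPM in the GFP line (7.68 to 11.4) and at 0 in the SMARCB1 line, while MEST, PLAGL1 and PHLDA2 lie above the GFP line in every SMARCB1 library.

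The lines were compared with each other without Dox and again with Dox, and these comparisons share no library. In SMARCB1 DMSO against GFP DMSO, 17 of the 26 tested members passed the edgeR quasi-likelihood test (Benjamini-Hochberg adjusted p below 0.05, here a call), as did 32% of all genes tested. Of these, 11 were higher in SMARCB1 DMSO (16.3% of all genes) and 6 lower (15.7%). Scaled to library totals in place of TMM, the split was 9 higher and 8 lower, since PEG10 and GNAS lost and SNRPN and UBE3A gained a call. In SMARCB1 Dox against GFP Dox, 18 of 26 were called (38.8% of all genes), 14 higher (19.6%) and 4 lower (19.2%). The absolute log2 fold change had a median over the tested members of 0.47 without and 0.56 with Dox, beside 0.27 and 0.30 over all genes tested. The 5 members that passed the filter through 1 line alone enter these counts and medians and were kept for a level that is high in that line, so their calls are no support for a difference. Of the other 21 members, 10 were called higher and 3 lower without Dox, and 13 higher and 1 lower with Dox.

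Of the 17 domains, 14q32 between DLK1 and DIO3 held the members with the largest differences between the lines. MEG3, the maternally expressed noncoding RNA at its control region (chromosome 14, 100779410 to 100861031, GRCh38), had 373 and 436 counts in the GFP line with DMSO, 313 and 407 there with Dox, and 0 in each of the 4 SMARCB1 libraries. The groups of the 2 lines did not overlap, and MEG3 had no count with or without Dox in the SMARCB1 line. In these bulk libraries, fewer cells with an RNA and less of it per cell cannot be told apart. With a floor of 3 counts over the 2 libraries of a group, MEG3 was at least 232-fold lower in SMARCB1 DMSO than in GFP DMSO and at least 251-fold lower in SMARCB1 Dox than in GFP Dox. MEG8, a second maternal noncoding RNA of the domain, had 279, 336, 246 and 281 counts in the GFP DMSO and GFP Dox libraries and likewise 0 in the 4 others. It was at least 176-fold lower without and 184-fold lower with Dox. No p is given for MEG3, MEG8 and DLK1 between the lines, since each was tested only because of its level in the GFP line.

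DLK1, the paternally expressed gene of the same domain and a transmembrane protein related to Notch ligands, followed in the same direction at a lower level. It had 42 and 34 counts with DMSO and 35 and 19 with Dox in the GFP line, against 1 and 2 with DMSO and 0 and 1 with Dox in the SMARCB1 line. The ratio of the GFP to the SMARCB1 line was 21.8 without Dox (exact 95% interval 7.19 to 108) and 56.5 with Dox (9.72 to 2270). These intervals cover counting error only. Both the maternal and the paternal side of the domain were thus at or near 0 in the SMARCB1 line. Of the 127 genes annotated from DLK1 to DIO3 (most of them microRNAs and small nucleolar RNAs) 7 had counts in the GFP line with 2816 in all, and 4 in the SMARCB1 line with 8 in all. MEG8 and MEG3 share exons with MIR493HG and several small RNAs, and their own counts exclude reads assigned to more than 1 gene.

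The lower level in the SMARCB1 line reached beyond the imprinted span. Distances are given from the start of the annotated MEG3 gene (100779410), which lies upstream of the promoter window printed above. BEGAIN, a protein of the neuronal postsynapse that starts at -192 kb relative to the MEG3 start, had 21 and 35 counts in SMARCB1 DMSO against 539 and 643 in GFP DMSO (log2 fold change -4.18, SE 0.223, edgeR adjusted p = 1.08e-12). SLC25A29, a mitochondrial carrier that starts at -472.9 kb, had 485 and 559 against 1528 and 1814 (log2 -1.46, SE 0.0946, edgeR adjusted p = 3.38e-11). Among the 7 tested protein-coding neighbors within 500 kb, 5 were called lower and 1 higher in SMARCB1 DMSO, with a median log2 fold change of -0.43. A change in DNA copy number was not tested.

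**Figure D2:**
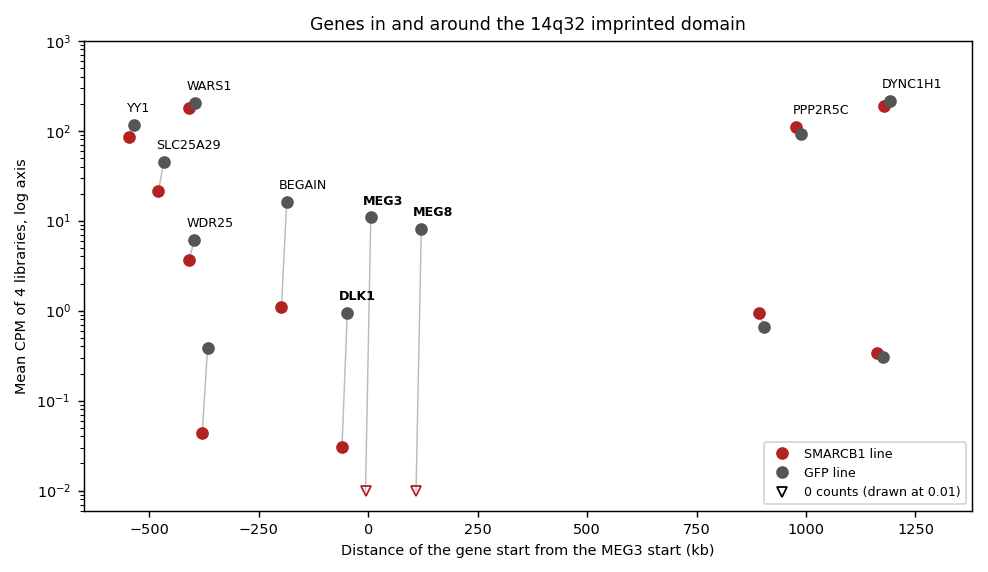
Mean CPM of the 4 libraries of each line (log axis) for genes in and around the 14q32 domain with at least 50 counts, placed by the distance of the gene start from the MEG3 start in kb, with members in bold and genes without a symbol unnamed. MEG3, MEG8, DLK1 and BEGAIN lie far lower in the SMARCB1 line (red) than in the GFP line (grey), while PPP2R5C beyond DIO3 had 91.9 CPM in the GFP line and 110 in the SMARCB1 line.

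On 11p15.5, which holds 2 control regions, the maternally expressed H19 and PHLDA2 were higher in the SMARCB1 line. H19, a noncoding RNA that competes with IGF2 for shared enhancers, had 1.30 and 2.43 CPM with DMSO and 3.43 and 3.03 with Dox in the SMARCB1 line, against 1.04 and 0.990 with DMSO and 1.07 and 1.04 with Dox in the GFP line. Both SMARCB1 DMSO libraries lay above the GFP libraries, and the lower of them by a small margin. The log2 fold change was 0.89 (SE 0.307, edgeR adjusted p = 0.0301) without and 1.61 (SE 0.291, edgeR adjusted p = 0.000121) with Dox. The call without Dox was lost by DESeq2, in a fit of the 4 compared libraries, and without SMARCB1 DMSO replicate 2, where the log2 fold change was 0.36. It was also lost without either GFP DMSO library. IGF2, the paternally expressed fetal growth factor of the same control region, had 13 to 50 counts per library and was not called in any comparison, although without GFP DMSO replicate 1 the lines differed by a call. Its log2 fold change between the lines was 0.51 (SE 0.467) without and 0.53 (SE 0.451) with Dox, and parts of its exons are shared with INS-IGF2 (20.4%) and a further readthrough gene (37.9%).

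PHLDA2, which restrains placental growth, belongs to the second 11p15.5 region, governed by the promoter of KCNQ1OT1. It had 1.34 and 1.73 CPM with DMSO and 3.57 and 1.52 with Dox in the SMARCB1 line, against 0.355 and 0.469 with DMSO and 0.195 and 0.273 with Dox in the GFP line. All 4 SMARCB1 libraries lay above all 4 GFP libraries, and the SMARCB1 Dox libraries lay far apart from each other. The log2 fold change between the lines was 1.88 (SE 0.432, edgeR adjusted p = 0.00174) without and 3.41 (SE 0.456, edgeR adjusted p = 3.07e-06) with Dox. SLC22A18, a membrane transporter, had 2.26 and 2.21 CPM with DMSO and 2.70 and 2.29 with Dox in the SMARCB1 line, against 2.04 and 1.75 with DMSO and 1.72 and 1.42 with Dox in the GFP line. It was called only with Dox (log2 0.67, SE 0.246, edgeR adjusted p = 0.0352), a call lost by DESeq2, by scaling to library totals and without SMARCB1 Dox replicate 1 or either GFP Dox library. KCNQ1OT1, the paternally expressed antisense RNA within KCNQ1, stayed between 11.6 and 15.1 CPM (log2 0.02, SE 0.131, and 0.14, SE 0.13). CDKN1C, a cyclin-dependent kinase inhibitor, had 1 to 18 counts per library, and its log2 fold changes of 0.14 (SE 0.817) and 1.62 (SE 0.752) were not called, the latter except in a fit of the 4 compared libraries.

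On 7q21, where the promoter between PEG10 and SGCE is the control region, 2 of 3 members were called higher without Dox and 3 of 3 with Dox, all by small amounts. PEG10, derived from a retrotransposon and required in the placenta, had 343 and 379 CPM with DMSO and 391 and 439 with Dox in the SMARCB1 line, against 279 and 295 with DMSO and 295 and 296 with Dox in the GFP line. Its log2 fold change was 0.33 (SE 0.0843, edgeR adjusted p = 0.00412) without and 0.49 (SE 0.0843, edgeR adjusted p = 7.24e-05) with Dox. Without Dox the call was lost when scaled to library totals (0.22) and without GFP DMSO replicate 1. SGCE, a sarcoglycan of the muscle and brain membrane, had 16.4 and 16.0, 16.6 and 15.54, 12.4 and 11.5, and 11.5 and 11.7 CPM in SMARCB1 DMSO, SMARCB1 Dox, GFP DMSO and GFP Dox. Its log2 fold change was 0.45 (SE 0.115) without and 0.47 (SE 0.115) with Dox, and the call without Dox was lost without GFP DMSO replicate 2. PPP1R9A, a neuronal actin-binding protein, had 24.6 and 23.0, 21.4 and 27.3, 19.5 and 21.2, and 16.5 and 18.6 CPM in the same order. It was called with Dox alone (log2 0.47, SE 0.118), and without SMARCB1 Dox replicate 2 the value was 0.28 and the call was lost, as it was without GFP Dox replicate 1. The 3 tested neighbors had log2 fold changes of 0.20 to 0.63 without Dox, a range that includes those of the 3 members.

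MEST, the paternally expressed gene of 7q32 and a protein of the alpha/beta hydrolase fold, was higher in the SMARCB1 line and rose further with Dox. It had 3.40 and 3.28 CPM with DMSO and 9.44 and 9.70 with Dox in the SMARCB1 line, against 1.78 and 0.990 with DMSO and 1.36 and 1.48 with Dox in the GFP line. The 2 SMARCB1 groups did not overlap with each other or with the GFP libraries. The difference between the lines was 1.28 on the log2 scale (SE 0.236, edgeR adjusted p = 0.000195) without and 2.75 (SE 0.218, edgeR adjusted p = 1.02e-09) with Dox. CEP41, a ciliary protein within 500 kb, had 0 and 1 counts in SMARCB1 DMSO against 299 and 384 in GFP DMSO, a ratio of 588 in the opposite direction (exact 95% interval 105 to 23300). CEP41 passed the filter through the GFP line alone, so this ratio is no support for a difference. GRB10, the insulin receptor adaptor of 7p12, was not detectable at this depth beyond 1 count.

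PEG3, a paternally expressed zinc finger gene of 19q13, had 31.9 and 26.6 CPM with DMSO and 30.7 and 28.3 with Dox in the SMARCB1 line, against 19.4 and 22.1 with DMSO and 21.4 and 22.6 with Dox in the GFP line. All SMARCB1 libraries lay above all GFP libraries, with log2 fold changes of 0.49 (SE 0.108, edgeR adjusted p = 0.00126) and 0.42 (SE 0.108, edgeR adjusted p = 0.00333). Of 14 tested neighbors, many of them zinc finger genes, 0 were called higher and 1 lower without Dox.

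NAP1L5, a paternally expressed histone chaperone relative that lies within an intron of HERC3 on 4q22, went the other way. It had 10.1 and 12.1 CPM with DMSO and 14.4 and 15.2 with Dox in the SMARCB1 line, against 16.6 and 15.8 with DMSO and 18.97 and 16.2 with Dox in the GFP line. The SMARCB1 DMSO libraries were the lowest of the 8. The log2 fold change between the lines was -0.54 (SE 0.125, edgeR adjusted p = 0.00184) without Dox and, not called, -0.25 (SE 0.122) with Dox. ABCG2, a drug efflux pump within 500 kb, had 2 counts in each SMARCB1 DMSO library against 86 and 111 in GFP DMSO (log2 -5.32, SE 0.454, edgeR adjusted p = 3.91e-09).

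On 6q24, PLAGL1 and HYMAI share the control region printed above and were both higher in the SMARCB1 line. PLAGL1, a zinc finger transcription factor that slows cell division, had 35.2 and 28.8 CPM with DMSO and 48.0 and 34.5 with Dox in the SMARCB1 line, against 6.34 and 7.66 with DMSO and 7.08 and 7.46 with Dox in the GFP line. The lines were separated by a wide gap. The log2 fold change was 2.19 (SE 0.149, edgeR adjusted p = 8.65e-11) without and 2.50 (SE 0.149, edgeR adjusted p = 7.1e-12) with Dox. HYMAI, the noncoding RNA, had 19 and 13 counts with DMSO and 40 and 10 with Dox in the SMARCB1 line, against 0 and 6 with DMSO and 4 and 9 with Dox in the GFP line. Its log2 fold changes of 2.60 (SE 0.857) and 1.86 (SE 0.712) rest on few counts, and no p is given since it was tested only because of its level in the SMARCB1 line. The call without Dox was lost without SMARCB1 DMSO replicate 1 or GFP DMSO replicate 1 (1.71 without the latter), and without GFP DMSO replicate 2 the only GFP DMSO library left had 0 counts. The call with Dox was lost by DESeq2, without SMARCB1 Dox replicate 1 (0.57) and without either GFP Dox library. The neighbors UTRN, a dystrophin relative (log2 3.43, SE 0.158, edgeR adjusted p = 7.88e-14), and STX11, a syntaxin with 8 and 5 counts against 0 and 0 (at least 5.03-fold higher), were also higher in SMARCB1 DMSO. STX11 passed the filter through the SMARCB1 line alone, so its value is no support for a difference.

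The 15q11-q13 domain, whose loss causes Prader-Willi or Angelman syndrome, gave no call between the lines with TMM scaling and no replicate block. SNRPN, a spliceosomal protein gene at the control region, had 33.5 and 35.7 CPM with DMSO and 39.2 and 35.5 with Dox in the SMARCB1 line, against 39.9 and 37.96 with DMSO and 40.5 and 41.5 with Dox in the GFP line (log2 -0.17, SE 0.0892, and -0.13, SE 0.0885). With library totals the SNRPN difference without Dox was called lower. UBE3A, a ubiquitin ligase expressed from the maternal copy in neurons, had 164 to 200.2 CPM. Its log2 fold change of -0.11 (SE 0.0781) without Dox was called only with library totals, and that of -0.19 (SE 0.0782, edgeR adjusted p = 0.0575) with Dox was called by DESeq2, with library totals and with the replicate block. SNURF, which shares 52.1% of its exon bases with SNRPN, had 18 to 35 counts (log2 -0.02, SE 0.454, and -0.08, SE 0.439). SNHG14, the long RNA that runs from this region antisense to UBE3A, had 12742 to 16573 counts and a log2 fold change of 0.06 (SE 0.0787) without Dox. NDN, MAGEL2 and MKRN3, the paternally expressed genes on the other side of the region, were at or near 0 in both lines.

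On chromosome 20, GNAS and BLCAP were called higher in the SMARCB1 line in both comparisons, and L3MBTL1 was not called. GNAS, which encodes the stimulatory G protein alpha subunit from a locus with maternal, paternal and biallelic promoters that gene counts merge, had 828 and 823 CPM with DMSO and 809 and 863 with Dox in the SMARCB1 line, against 675 and 639 with DMSO and 684 and 653 with Dox in the GFP line. Its log2 fold change was 0.33 (SE 0.0805, edgeR adjusted p = 0.00298) without and 0.32 (SE 0.0805, edgeR adjusted p = 0.00279) with Dox. Without Dox the value fell to 0.21 and the call was lost when scaled to library totals, and the call was also lost without GFP DMSO replicate 2. BLCAP, a small membrane protein gene whose imprint is limited to some transcripts and tissues, had 93.8 and 83.7 CPM with DMSO and 121 and 107 with Dox in the SMARCB1 line, against 54.7 and 44.6 with DMSO and 47.8 and 46.6 with Dox in the GFP line. All SMARCB1 libraries lay above all GFP libraries (log2 0.84, SE 0.0976, edgeR adjusted p = 5.3e-07, and 1.27, SE 0.098, edgeR adjusted p = 6.24e-10). NNAT, which lies inside BLCAP, had 0 counts. L3MBTL1, a reader of methylated histone lysines, had 46 to 95 counts and log2 fold changes of -0.33 (SE 0.249) and 0.00 (SE 0.244).

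ZDBF2, a paternally expressed zinc finger gene of 2q33, was the clearest member below the GFP line outside 14q32. It had 15.8 and 19.02 CPM with DMSO and 21.4 and 26.2 with Dox in the SMARCB1 line, against 45.4 and 49.4 with DMSO and 42.8 and 45.4 with Dox in the GFP line. The 4 SMARCB1 libraries lay below the 4 GFP libraries, with a log2 fold change of -1.45 (SE 0.111, edgeR adjusted p = 6.79e-10) without and -0.89 (SE 0.108, edgeR adjusted p = 7.25e-07) with Dox. Its neighbor ADAM23, a cell adhesion protein, had 7 and 14 counts in SMARCB1 DMSO against 274 and 345 in GFP DMSO, while NRP2, a semaphorin receptor, had 335 and 315 against 40 and 63. DIRAS3, a Ras-like growth inhibitor of 1p31, was not tested, with 2 to 6 counts in SMARCB1 and 8 to 12 in GFP libraries.

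IGF2R, the receptor that clears IGF2 from the cell surface, had 250 and 241 CPM with DMSO and 188 and 238 with Dox in the SMARCB1 line, against 179 and 188 with DMSO and 176 and 168 with Dox in the GFP line. The log2 fold change was 0.42 (SE 0.0937, edgeR adjusted p = 0.00137) without and 0.31 (SE 0.0938, edgeR adjusted p = 0.0116) with Dox. With Dox the SMARCB1 libraries disagreed, so that the value was 0.47 without replicate 1 of SMARCB1 Dox and 0.13, not called, without replicate 2. The call was also lost without GFP Dox replicate 2. INPP5F, an inositol phosphatase of 10q26 whose imprint concerns a retrogene-derived transcript that gene counts merge with the rest, had 18.0 and 17.7 CPM with DMSO and 33.3 and 35.4 with Dox in the SMARCB1 line, against 20.9 and 22.6 with DMSO and 23.0 and 22.8 with Dox in the GFP line. It lay below the GFP line without Dox (log2 -0.29, SE 0.0992, edgeR adjusted p = 0.032) and above it with Dox (log2 0.59, SE 0.0957, edgeR adjusted p = 3.78e-05). The call without Dox was lost without any 1 of the 4 libraries and with no filter on low counts.

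**Figure D3:**
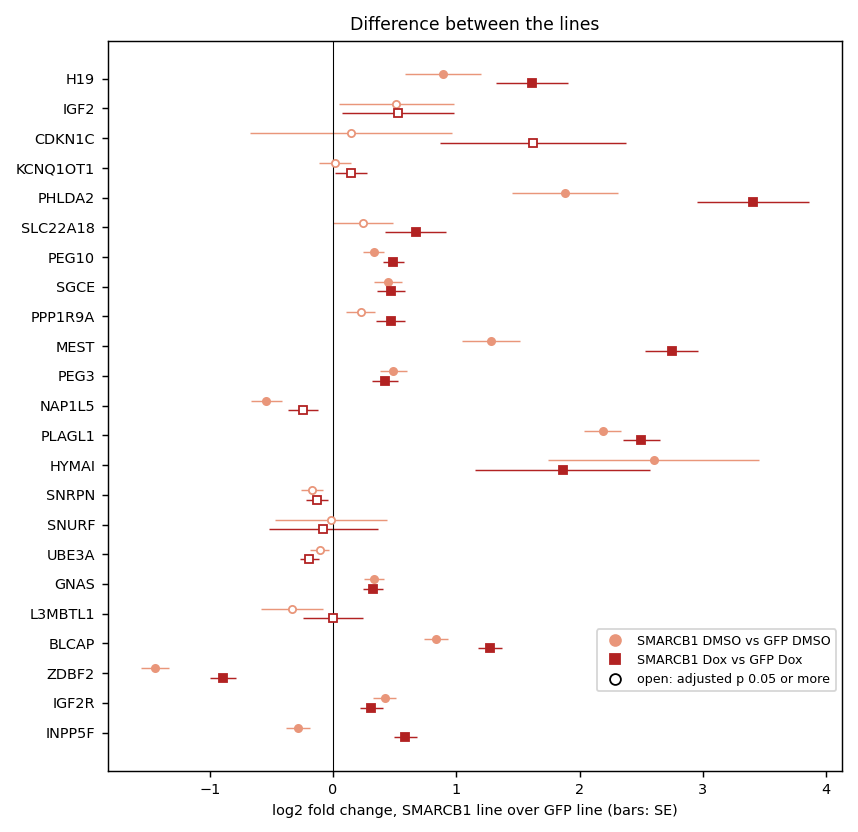
Log2 fold change of the SMARCB1 line over the GFP line for the tested members, without Dox (circles) and with Dox (squares), with bars of 1 SE and open symbols for values not called. MEG3, MEG8 and DLK1 are left out since they had at most 3 counts per group in the SMARCB1 line, PLAGL1 (2.19 and 2.50) and ZDBF2 (-1.45 and -0.89) lie far to either side, and INPP5F changes side.

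Set beside their neighbors within 500 kb, the domains showed no common pattern. At 14q32 and 6q24 the neighbors named above differed in the direction of the members, and at 2q33 neighbors differed in both directions. Those named at 6q24 were picked by size. Of the 8 tested neighbors there, 3 were called higher and 1 lower without Dox, with a median log2 fold change of 0.09. At 7q32 CEP41 differed in the direction opposite to MEST, while CPA4, a gene of the further list described below, was higher in the SMARCB1 line as MEST was. Genes of that list were not counted as neighbors, which left 15q11-q13 with 0 tested neighbors. At 6q25, 0 of 5 tested neighbors of IGF2R were called without Dox, with log2 fold changes between -0.10 and 0.04. At 20q13.1, where L3MBTL1 was not called, TOX2, a nuclear protein of lymphocytes, had 8 and 25 counts against 162 and 246 (log2 -3.40, SE 0.359). At 1p31 GNG12, a G protein gamma subunit, was higher in SMARCB1 DMSO (log2 1.37, SE 0.0795), and at 11p15.5 TH, tyrosine hydroxylase, was lower (log2 -2.88, SE 0.798) and DUSP8, a phosphatase, higher (log2 1.84, SE 0.225). TH, CEP41 and STX11 passed the filter through 1 line alone, so their values are no support for a difference.

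**Figure D4:**
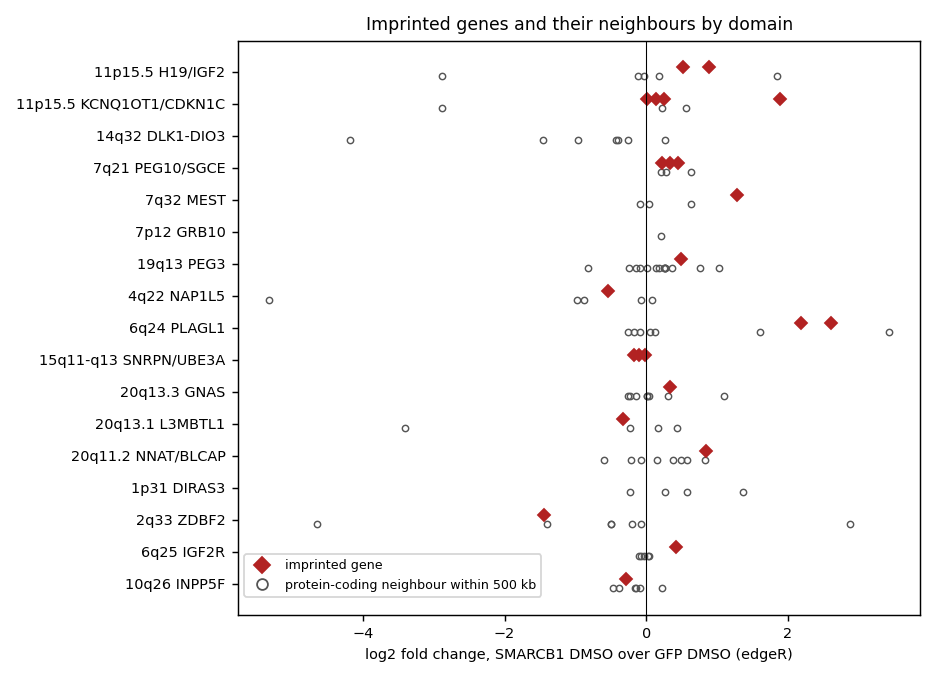
Log2 fold change in SMARCB1 DMSO over GFP DMSO of imprinted genes (red diamonds) and of protein-coding neighbors within 500 kb (open circles) for each of the 17 domains, for tested genes with over 3 counts in both groups, which leaves out MEG3, MEG8, DLK1, CEP41 and STX11. The neighbors shown span from -5.32 (ABCG2) to 3.43 (UTRN), and genes of the further imprinted list, such as ATP10A (-7.30) at 15q11-q13, are not shown.

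To ask which domains respond to SMARCB1, Dox was compared with DMSO within the SMARCB1 line. Of the 26 tested members, 5 were called, all higher with Dox. Over all genes tested 14% were called, 8.33% higher and 5.69% lower. The called members were MEST, INPP5F, ZDBF2, NAP1L5 and BLCAP, from 5 domains. This comparison and that of the lines without Dox share the SMARCB1 DMSO libraries. The median log2 fold change of the tested members was 0.17, beside 0.00 over all genes tested, and scaling to library totals moved the median of all genes to 0.09.

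MEST rose from 3.34 ± 0.0853 to 9.57 ± 0.184 CPM (SD, n = 2), or by 1.52 on the log2 scale (SE 0.196, edgeR adjusted p = 1.28e-05). INPP5F rose from 17.9 ± 0.165 to 34.3 ± 1.53 CPM, or by 0.94 on the log2 scale (SE 0.0977, edgeR adjusted p = 8.53e-07). Both calls held under every alternative tried, with ranges of 1.49 to 1.61 and 0.90 to 1.04. ZDBF2 rose from 17.4 ± 2.31 to 23.8 ± 3.39 CPM (log2 0.45, SE 0.113, edgeR adjusted p = 0.00929), NAP1L5 from 11.1 ± 1.43 to 14.8 ± 0.592 CPM (log2 0.41, SE 0.126, edgeR adjusted p = 0.0306) and BLCAP from 88.7 ± 7.17 to 114 ± 9.67 CPM (log2 0.36, SE 0.0955, edgeR adjusted p = 0.0126). In each of these the Dox libraries lay above the DMSO libraries, but each call rested on single libraries. The ZDBF2 call was lost without SMARCB1 DMSO replicate 1 and without SMARCB1 Dox replicate 2 (0.30), the BLCAP call without SMARCB1 DMSO replicate 2 and without SMARCB1 Dox replicate 1, and the NAP1L5 call without SMARCB1 DMSO replicate 1, without either SMARCB1 Dox library and in a fit of the 4 compared libraries.

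The called members had started on either side of the GFP line. MEST and BLCAP were already above it in SMARCB1 DMSO and moved further away, whereas ZDBF2 and NAP1L5 were below it and moved toward it. ZDBF2 still lay below the GFP line with Dox, and INPP5F crossed it. H19 had higher values with Dox that were not called (log2 0.78, SE 0.272, edgeR adjusted p = 0.0609), and so had PLAGL1 (log2 0.37, SE 0.132, edgeR adjusted p = 0.0696) and PEG10 (log2 0.20, SE 0.0841, edgeR adjusted p = 0.124). All 3 were called when scaled to library totals or with the replicate block. IGF2R went the other way, with lower values with Dox that were not called (log2 -0.20, SE 0.0935, edgeR adjusted p = 0.167). MEG3 and MEG8 stayed at 0 counts, so that re-expression of SMARCB1 for 12 h gave no RNA of either gene above the floor, which over the SMARCB1 Dox libraries corresponded to 0.0425 CPM. Among neighbors of the called members, BAG3, a co-chaperone in the INPP5F domain, was also higher with Dox (log2 0.84, SE 0.117, edgeR adjusted p = 3.12e-05), and TMEM209, a nuclear envelope protein near MEST, was lower (log2 -0.55, SE 0.0795, edgeR adjusted p = 4.92e-05). No other of the 6 tested neighbors of INPP5F or the 4 of MEST was called. Of 5 tested at 4q22, 3 were called higher and 1 lower. At 20q11.2 1 of 8 was higher and 1 lower, and at 2q33 1 of 7 was higher. Over all genes tested 8.33% were higher and 5.69% lower.

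In the GFP line, Dox gave no call among the 26 tested members by edgeR or by DESeq2, 0 had an unadjusted p under 0.05, and 0% of all genes tested were called, with 266 below 0.05 before adjustment. A difference between the lines in the effect of Dox was called for 3 members, beside 4.71% of all genes. These were MEST (1.46 on the log2 scale, SE 0.329, edgeR adjusted p = 0.0103), INPP5F (0.87, SE 0.138, edgeR adjusted p = 0.000508) and ZDBF2 (0.55, SE 0.154, edgeR adjusted p = 0.0402). For BLCAP (0.44, SE 0.137, edgeR adjusted p = 0.0789) and NAP1L5 (0.30, SE 0.175, edgeR adjusted p = 0.444) the difference was not called. In this fit their Dox effect was thus not shown to differ from that of Dox alone. The BLCAP difference was called with library totals, with no filter on low counts and with the replicate block. The INPP5F difference held under every alternative tried (0.82 to 0.95). That of MEST was lost without GFP DMSO replicate 1 and without GFP Dox replicate 1 (range 1.00 to 1.84), and that of ZDBF2 was lost in 6 of the 8 fits that left out 1 library, all except those without SMARCB1 DMSO replicate 2 and without SMARCB1 Dox replicate 1 (0.40 to 0.70 over all alternatives).

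**Figure D5:**
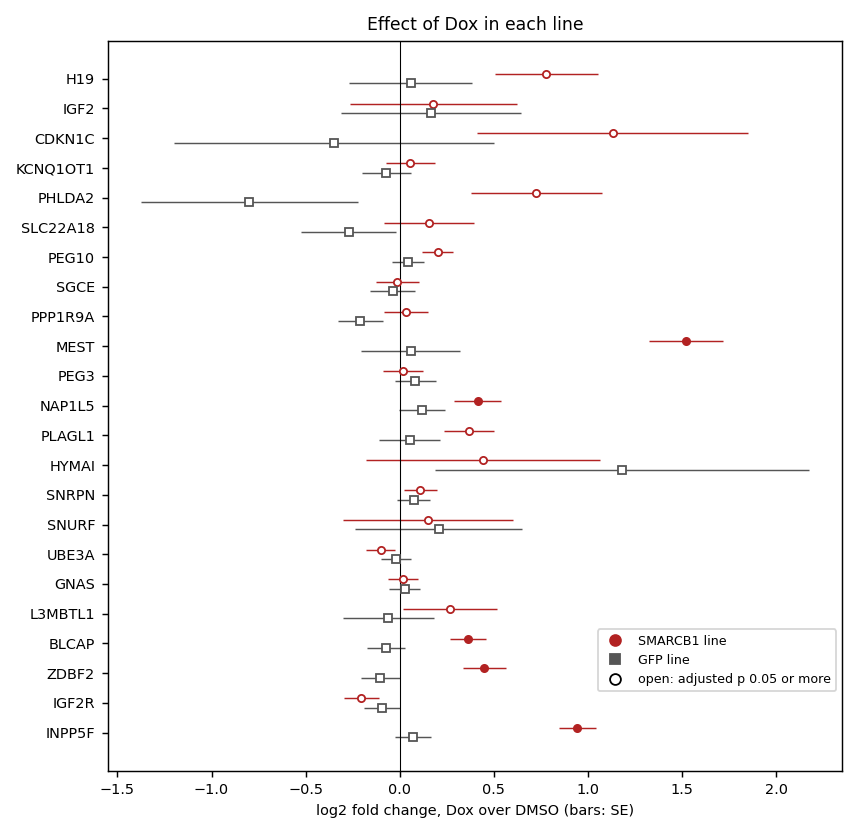
Log2 fold change of Dox over DMSO in the SMARCB1 line (circles) and the GFP line (squares) for the tested members other than MEG3, MEG8 and DLK1, with bars of 1 SE and filled symbols for called values. MEST (1.52) and INPP5F (0.94) stand to the right in the SMARCB1 line, and all GFP line values are open.

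A further list of 62 genes reported as imprinted in some tissue or lying in the same domains was examined in the same way. Of these, 55 were matched and 25 tested. Dox in the SMARCB1 line gave 6 higher and 0 lower (median log2 fold change 0.10), beside 8.33% higher and 5.69% lower over all genes tested. Dox in the GFP line gave 0, and the difference of the Dox effects was called for 1 (4.71% of all genes). FAM50B, a paternally expressed retrogene, had 0 counts in both SMARCB1 DMSO libraries and 21 and 11 with Dox (at least 9.39-fold higher). It passed the filter only through the SMARCB1 Dox libraries, so its place among the 6 called higher is no support for a rise. PEG13, a noncoding RNA, had 10 and 7 counts in SMARCB1 DMSO and 51 and 53 in SMARCB1 Dox (log2 2.41, SE 0.425, edgeR adjusted p = 0.000444), and was the gene whose Dox effect differed between the lines (2.33, SE 0.576, edgeR adjusted p = 0.0194). CPA4, a carboxypeptidase in the MEST region, had 71 and 45 counts in SMARCB1 DMSO and 230 and 100 in SMARCB1 Dox (log2 1.30, SE 0.345), and in the GFP line 0 and 2 counts without and 3 and 2 with Dox.

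Between the lines, this list had 6 genes higher and 5 lower in SMARCB1 DMSO (median 0.05), and 7 higher and 1 lower in SMARCB1 Dox against GFP Dox (median 0.01). Over all genes tested 16.3% were higher and 15.7% lower without Dox, and 19.6% and 19.2% with Dox. ATP10A, CPA4, TFPI2 and FAM50B passed the filter through 1 line alone. No p is given for them between the lines, and their part in the counts of this list is no support for a difference. ATP10A, a phospholipid flippase beside UBE3A on 15q, had 3 and 4 counts in SMARCB1 DMSO against 645 and 676 in GFP DMSO (log2 -7.30, SE 0.273), although the tested members of that domain were not called. CPA4, with 71 and 45 counts against 0 and 2, had a ratio of 67.4 (exact 95% interval 18.2 to 563). TFPI2, a protease inhibitor of 7q21, had 63 and 62 counts against 4 and 0 (log2 5.09, SE 0.568).

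Of 28 factors that set, keep or read imprints, 25 were tested. In SMARCB1 DMSO against GFP DMSO, 1 was higher and 9 lower (median log2 fold change -0.12), and with Dox 1 was higher and 8 lower (median -0.07). Over all genes tested the shares were 16.3% higher and 15.7% lower without Dox, and 19.6% and 19.2% with Dox. DNMT3B, a de novo DNA methyltransferase, had 32.9 and 35.7 CPM with DMSO and 52.4 and 58.6 with Dox in the SMARCB1 line, against 84.9 and 87.2 with DMSO and 87.3 and 95.1 with Dox in the GFP line. It was lower in the SMARCB1 line (log2 -1.33, SE 0.088, edgeR adjusted p = 5.38e-11 without Dox) and rose there with Dox (log2 0.69, SE 0.0883, edgeR adjusted p = 1.13e-05). This rise was the only Dox effect of the list that differed between the lines (0.61, SE 0.122, edgeR adjusted p = 0.00432). DNMT3L, its catalytically inactive partner, had 0 and 1 counts in SMARCB1 DMSO against 22 and 4 in GFP DMSO, a ratio of 22.4 (exact 95% interval 3.68 to 918). It passed the filter through the GFP line alone, so its place among the factors called lower is no support for a difference. Dox in the SMARCB1 line gave 3 higher and 1 lower in this list (median 0.08), namely DNMT3B, DNMT3A (log2 0.63, SE 0.16), the maintenance factor UHRF1 (log2 0.41, SE 0.0904) and the demethylase KDM1B (log2 -0.38, SE 0.0969), beside 8.33% higher and 5.69% lower over all genes, and Dox in the GFP line gave 0 (median 0.04). Whether the level of these factors bears on the imprinted genes was not tested.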

How the data were processed

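RNA levels were measured in 8 libraries, which were grouped by line and treatment as the sample labels give them. The authors deposited raw read counts per gene, made with STAR and HTSeq over exons in intersection-strict mode with GENCODE v42 on hg38. Tool versions and the strand option were not given in the sources used here, so overlapping and antisense genes are uncertain. The labels name a ribosome profiling kit and the methods a directional RNA kit, so the library chemistry is uncertain. The 5 entries naming no gene (27% to 29.3% of reads) were left out. Symbols, positions and exon lengths came from GENCODE v44 (62625 of 69215 identifiers matched).

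edgeR 4.0.16 (R 4.3.3) was run with its default expression filter, TMM scaling and the quasi-likelihood test, fitting the 4 group means to the 8 libraries together. Calls used a Benjamini-Hochberg adjusted p under 0.05 over the 15931 genes within each of 5 comparisons. Each standard error is the log2 fold change divided by the square root of its F statistic. A group with 0 counts was set to a floor of 3 counts over its 2 libraries, and groups with 1 to 3 counts were compared by an exact 95% binomial interval. Floors and intervals cover counting error only. Replicates of a group differed beyond sampling noise (chi-square per degree of freedom 8.03 to 21.9), so no library was counted as a duplicate.

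All 36 members were described, with values per library for those called in any comparison. From the lists, at most 3 genes per comparison, called and with an absolute log2 fold change over 1, were named by size, and at most 2 neighbors per domain. The DNMT3A, DNMT3B, UHRF1 and KDM1B values of the factor list, SNHG14, and the neighbors BAG3 and TMEM209 were named after their values were seen. So were ZNF445 and TRIM28 of the factor list. The members, lists and tests were chosen with earlier results of these data known. The 2 lists share 1 gene. Alternatives were DESeq2 1.42.0, other scalings, other filters, the replicate block, a fit of the compared libraries, and leaving out each library. The steps were tested on simulated data.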

Additional observations from a re-analysis of the deposited data

Results flagged for a closer look

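For 3 imprinted genes the effect of Dox differed between the SMARCB1 line and the GFP line by a test of the difference itself. MEST differed by 1.46 on the log2 scale, INPP5F by 0.87 and ZDBF2 by 0.55, each with the larger rise in the SMARCB1 line. In the GFP line the log2 fold changes of Dox over DMSO were 0.06 for MEST (SE 0.263), 0.07 for INPP5F (SE 0.0973) and -0.10 for ZDBF2 (SE 0.104), with 2 libraries per group.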

How the results depend on the processing

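Of 43 calls of single imprinted genes, 28 held under every alternative run for them, 15 were lost under at least 1, and 0 changed direction. Among the 480 alternative values, 480 kept their direction. Both tallies include the calls of MEG3, MEG8, DLK1 and HYMAI between the lines. Each of these passed the filter through 1 line alone, so its calls are no support for a difference. The number of members called for Dox in the SMARCB1 line was 5, and it was 8 with scaling to library totals, 8 with the replicate block, and 3 to 6 when 1 library was left out. The block added H19, PEG10 and PLAGL1. The number with a different Dox effect was 3, and 1 to 3 when 1 library was left out. With library totals, with no filter on low counts or with the replicate block, the number with a different Dox effect was 4, each adding BLCAP. For both counts the fits leaving out a library left 1 library in a group, which was assumed to vary like the other groups. Scaling to library totals moved the median over all genes to -0.10 (log2) between the lines without Dox. The labels give same-numbered samples only a number in common, and whether they were handled together was not stated. Their deviations correlated at 0.15 between the SMARCB1 groups, 0.09 between the GFP groups and 0.03 to 0.06 otherwise. Over all genes the replicate block raised the calls for Dox in the SMARCB1 line from 2234 to 3149. Those for the difference of the Dox effects rose from 750 to 1282, and Dox in the GFP line stayed at 0. A shared effect of the replicate number is thus not excluded. HYMAI did not pass the filter of at least 1 CPM in 2 libraries. Depth limits CDKN1C, HYMAI, SNURF, DLK1 and the 10 genes that were not tested.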
